A study of Mus musculus with 10 samples.

Results

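Constitutively open promoters marked by H3K4me3 were the sites at which neural stem and progenitor cells (NSPCs) kept chromatin accessible in every state and every library. Peaks of the 6 ATAC-seq lists on chromosomes 1 to 19 were merged where they overlapped or abutted, which gave 105302 merged sites. Sites were selected on their measured peaks: a member held a peak in all 6 lists, overlapped a window of 1 kb on either side of an annotated transcription start site (TSS), and shared at least 1 bp with an H3K4me3 region of both the quiescent and the activated cells. There were 11052 such sites, which is 10.5% of all merged sites. They made up 48.9% of the 22589 sites that were open in all 6 lists and 89.8% of the 12303 such sites at promoters. Because peak presence and H3K4me3 chose these sites, their openness in all lists and their mark are a description and not a finding.

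The cells were primary NSPCs of C57BL/6 mice at postnatal day 5, cultures that mix stem and progenitor cells. Activated NSPCs grew in medium with FGF2 and EGF, both at 20 ng/ml. For quiescence EGF was left out and BMP4 was added at 25 ng/ml beside 20 ng/ml FGF2, for 4 days per the labels, whereas the methods give a shorter time before ATAC-seq. Reactivated NSPCs had been quiescent for 4 days in BMP4 and were then returned for 9 to 12 days to the growth medium of activated cells, so FGF2 was common to all 3 states. ATAC-seq had 2 libraries per state, which the methods describe as independent biological replicates. H3K4me3 ChIP-seq had 1 library and 1 input library for each of the quiescent and activated states, so values of the mark have no replicate check, and reactivated cells were not profiled for it.

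Most mammalian promoters of broadly used genes lie in CpG islands, stretches rich in G, C and the CpG dinucleotide that mostly escape DNA methylation. Such promoters keep a nucleosome-depleted stretch at the TSS, where general transcription factors and activators such as NF-Y, Sp1, the ETS factors and NRF1 bind, and the nucleosomes on either side carry trimethylated lysine 4 of histone H3 (H3K4me3). In ATAC-seq the Tn5 transposase inserts adapters into accessible DNA, so that reads pile up over this stretch. BMP signalling, through SMAD proteins and their target genes of the Id family, arrests the division of neural stem cells, whereas EGF and FGF2 keep them dividing.

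Short stretches of 9 promoters show what the accessible DNA of these sites looked like. Each comes from the member of highest accessibility that met the terms for printing, which were a protein-coding gene on the autosomes read for this, the motif within the 250 bp before the TSS (for the TCT initiator, at the TSS), at most 20 exonic bases in the stretch and each promoter used once. Up to 3 members of higher rank with the motif on these autosomes were passed over. All are read 5′ to 3′ on the strand of transcription from GRCm38.p6 (mm10), and capitals mark the motif or its reverse complement. Msantd4 at chr9:4376484-4376568 (plus strand) shows CCAAT, the element bound by NF-Y. Stil at chr4:115000031-115000116 (plus strand) shows the GC box GGGCGG of the Sp1 family, here as CCGCCC. Tasp1 at chr2:140066818-140066904 (minus strand) shows CCGGAAG of the ETS family. Slc25a3 at chr10:91124132-91124221 (minus strand) shows the GC-rich palindromic motif of NRF1. Amn1 at chr6:149188701-149188770 (minus strand) shows TGACGTCA, the cAMP response element. Ncapg at chr5:45669823-45669912 (plus strand) shows the CGCG palindrome known to bind BANP. Akr1e1 at chr13:4609240-4609326 (minus strand) shows AAGATGG of YY1. Fancl at chr11:26386085-26386146 (plus strand) shows a TATA box, and Dsel at chr1:111864909-111864970 (minus strand) shows a TCT initiator, the pyrimidine-rich start that ribosomal protein genes are known for.
Msantd4, CCAAT: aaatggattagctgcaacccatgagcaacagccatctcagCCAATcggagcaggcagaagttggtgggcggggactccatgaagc
Stil, GC box: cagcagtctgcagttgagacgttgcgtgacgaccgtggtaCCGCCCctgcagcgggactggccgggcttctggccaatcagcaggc
Tasp1, ETS: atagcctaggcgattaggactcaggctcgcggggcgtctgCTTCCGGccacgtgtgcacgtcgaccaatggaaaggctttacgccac
Slc25a3, NRF1: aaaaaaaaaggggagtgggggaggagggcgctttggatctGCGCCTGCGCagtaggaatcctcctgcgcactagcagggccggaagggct
Amn1, CRE: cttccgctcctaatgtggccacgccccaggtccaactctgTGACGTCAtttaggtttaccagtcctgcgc
Ncapg, palindrome: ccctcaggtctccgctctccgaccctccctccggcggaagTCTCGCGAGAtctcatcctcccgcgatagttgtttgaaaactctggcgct
Akr1e1, YY1: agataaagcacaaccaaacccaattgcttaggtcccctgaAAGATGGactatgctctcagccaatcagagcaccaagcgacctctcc
Fancl, TATA: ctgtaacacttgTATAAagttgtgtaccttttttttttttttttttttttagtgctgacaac
Dsel, TCT: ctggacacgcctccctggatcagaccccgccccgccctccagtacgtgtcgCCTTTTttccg

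The label of the cells was checked against markers. Of 15 neural stem and progenitor markers, 13 had a member promoter, among them Sox2, Nes, Vim, Fabp7, Pax6, Sox9, Hes1 and Egfr, and Prom1 and Slc1a3 were open in 5 and 4 lists. Of 10 microglia and blood markers, none had a member promoter, 8 had a promoter peak in no list, P2ry12 had one in 5 lists, and none carried H3K4me3 in either list. None of the 7 endothelial and mural markers had a member promoter, although 4 had a promoter peak in some list, and Kdr, a VEGF receptor gene, had one in 5 lists with H3K4me3 in both states. The neuron list had 3 members of 8, the astrocyte list 4 of 7, the oligodendrocyte list 1 of 7 and the ependymal list 3 of 5, so promoters of other neural types were also in the set. The ATAC-seq lists held 47323 to 107137 peaks each. The longest were the reactivated lists, whose reads the authors had reduced before the peaks were called. Member sites took up 18210 to 24951 peaks per library, which was 23.9% to 39.5% of its peaks on chromosomes 1 to 19.

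Accessibility at a site was the fold enrichment of its strongest peak, which is the MACS pileup of reads at the summit over the local background of the same library, each with 1 added. Median fold enrichment over the members was 7.36 and 7.26 in the quiescent libraries, 8.98 and 7.56 in the activated libraries and 11.5 and 12.2 in the reactivated libraries. At the 1069 constitutive promoters without H3K4me3 the medians were 4.73 and 4.34, 5.7 and 4.83, and 8.72 and 9.04 in the same order. At the 8267 constitutive distal sites without the mark they were 5 and 4.51, 5.97 and 4.99, and 9.41 and 9.46. Members were thus the most accessible of these 3 classes in each of the 6 libraries. The median log2 fold enrichment of members exceeded that of promoters without the mark by 0.585 ± 0.138 (SD, n = 6 libraries, higher in 6 of 6, exact two-sided permutation test p = 0.03125, the smallest that 6 libraries allow). The difference from distal sites without the mark was 0.514 ± 0.154 (SD, n = 6, higher in 6 of 6, exact permutation p = 0.03125). Members held a median of 1.83 peaks per list and the other classes 1, and with the mean rather than the strongest peak of a site the first difference was 0.299. In bulk ATAC-seq, a larger share of open cells and a more open site in each cell cannot be told apart.

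**Figure D1:**
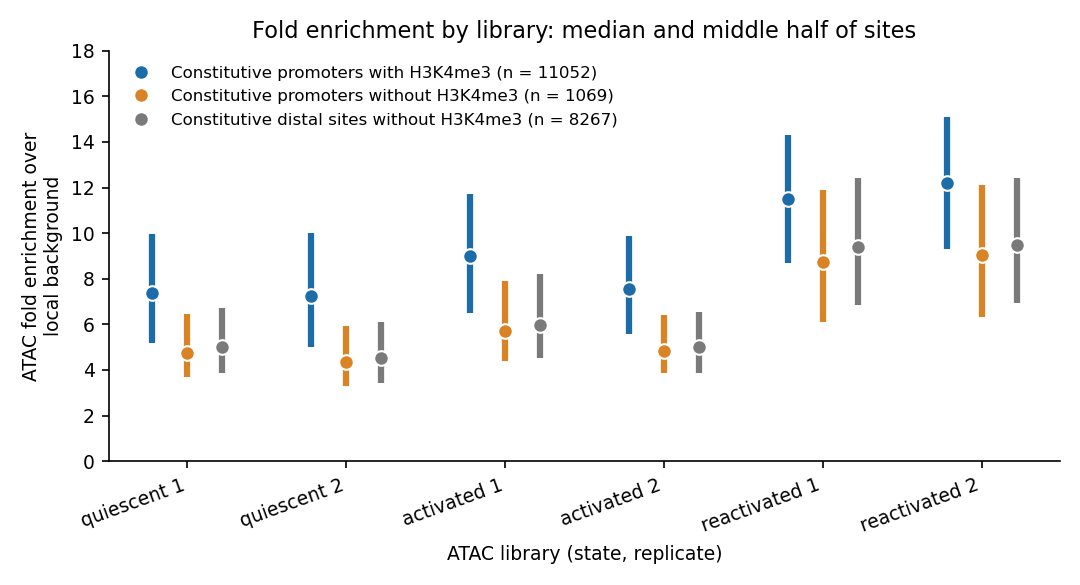
Median fold enrichment over the local background (vertical axis, linear scale, unitless) of members (blue) and of constitutive promoters (orange) and constitutive distal sites (grey) without H3K4me3 in each of the 6 ATAC-seq libraries (horizontal axis). Bars run from the lower to the upper quartile over sites. Member medians, from 7.26 to 12.2, lie above those of the other classes in every library.

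Since fold enrichment was not scaled between libraries, each peak was also ranked within its own list, and the mean percentile over the 6 lists was used as the level of a site. The median member had a mean percentile of 85.2, against 64.9 for promoters and 67.7 for distal sites without the mark. A mean percentile of 90 or more was reached by 3983 members (36%), by 6.92% of the unmarked promoters and by 7.55% of the unmarked distal sites. Replicates of a state also lay closer together at members, with a median SD of quantile-normalized log2 fold enrichment of 0.152 against 0.205 and 0.208. Constitutive distal sites with H3K4me3 lay between, at 0.179. Members also had larger pileups, with a median of 65 in the first quiescent library against 42 and 40 at the unmarked promoters and distal sites. The part of pileup in the closeness of replicates was not tested. Over all members log2 fold enrichment correlated with a Pearson r of 0.908 between the quiescent, 0.87 between the activated and 0.929 between the reactivated libraries. Between quiescent and activated libraries r was 0.818 to 0.856, and between reactivated and other libraries 0.682 to 0.761. These r describe 11052 sites that share library depth and base composition. Member medians of log2 fold enrichment averaged 2.87 in quiescent, 3.04 in activated and 3.56 in reactivated NSPCs. With 2 libraries against 2, the exact permutation test gave p = 0.333 for each pair of states, which is the smallest p that this design allows.

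The strongest peak of a member sat just before the TSS. Over the 10612 members (96%) whose nearest gene was protein-coding, the median summit lay at -35 to -27.5 bp relative to the TSS in the 6 libraries, and 63.1% to 64.3% of summits were within 100 bp of it. The gene of a site, and its TSS among principal transcripts where it had any, were those nearest to the site's median summit. Closeness to the TSS is thus partly set by that choice. The summit of one site moved little between libraries, with a median range over the 6 libraries of 44 bp. This was nearly the same in the other classes, with 48 bp at unmarked promoters and 50 bp at unmarked distal sites. Member sites were wider than the other constitutive classes, with a median of 815 bp (quartiles 636 and 1018 bp) against 498 bp at unmarked promoters and 510 bp at unmarked distal sites. A further 440 members had no protein-coding TSS in reach, and 1370 (12.4%) lay at TSSs of at least 2 protein-coding genes. Head-to-head gene pairs on opposite strands accounted for 1094 members (9.9%), against 0.281% of the unmarked promoters. Most genes had a single member (9852 genes), 947 had 2, 93 had 3 or more, and Dst, Pde4b and Pde4d had the most with 5 each. These counts do not sum exactly to the 10907 protein-coding genes with a member promoter given below, a gap that was not traced.

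Base composition set the members apart from the other constitutive sites. In the 300 bp around the summit, the median GC content was 65.67% (quartiles 60% and 71.33%), against 53.33% at unmarked promoters and 50.67% at unmarked distal sites. The median ratio of observed to expected CpG was 0.832, against 0.228 and 0.191. The 1464 constitutive distal sites with H3K4me3 lay between, with a GC content of 54.67% and a ratio of 0.464. A CpG ratio of at least 0.6 together with a GC content of at least 50%, the usual terms for a CpG island, held at 9208 members (83.3%), at 6.92% of the unmarked promoters and at 1.61% of the unmarked distal sites. In the window from 250 bp before to 50 bp after the TSS, members had a median GC content of 62% and a CpG ratio of 0.791, and all 20807 protein-coding promoters had 56% and 0.572. The latter set includes promoters of members. Within the set, level and mark were lowest at CpG-poor sites. The 638 members with a ratio below 0.4 had a median mean percentile of 73.9 and a quiescent H3K4me3 fold enrichment of 19.4, and the 4360 with a ratio of 0.8 to 1.0 had 87 and 40.9. The 1891 with a ratio of 1.0 and above had 86.3 and 41.7. These are descriptions over sites, without a test.

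**Figure D2:**
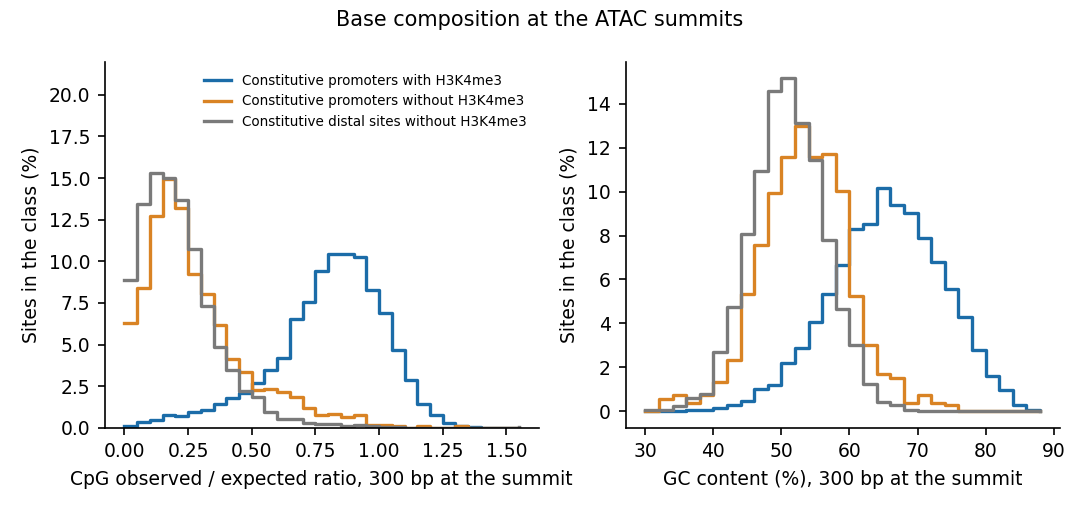
Histograms of the ratio of observed to expected CpG (left, horizontal axis, unitless) and of GC content (right, percent) in the 300 bp at the ATAC-seq summit, as the share of sites in each class (vertical axis, percent) for members (blue) and for constitutive promoters (orange) and constitutive distal sites (grey) without H3K4me3. Members peak near their median ratio of 0.832 and GC content of 65.67%, to the right of both other classes.

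Motifs were searched as exact letters on both strands in the 300 bp around the strongest summit, and shares have exact (Clopper-Pearson) 95% intervals that cover counting error only. A match is a description of the DNA and not a shown binding site. GGGCGG stood in 73% of members (72.2% to 73.8%), against 14.9% of unmarked promoters and 8.2% of unmarked distal sites. CCGGAAG stood in 18.5% of members (17.8% to 19.2%), against 2.81% and 2.06%, and the NRF1 motif in 11.4% (10.8% to 12%), against 0.655% and 0.194%. Constitutive distal sites with H3K4me3 lay between for each, with GGGCGG in 32.2%, CCGGAAG in 5.74% and the NRF1 motif in 3.14%. CCAAT differed less, with 39.2% of members (38.3% to 40.1%) against 30.8% and 32.4%. TGACGTCA was in 3.9% of members against 0.748% and 0.435%, CACGTG, the E-box of the MYC and USF families, in 10% against 4.86% and 4.21%, and AAGATGG in 7.46% against 4.12% and 5.03%. The CGCG palindrome was found in 128 members (1.16%) and in 0 sites of either unmarked class, which allows up to 0.344% of the unmarked promoters and 0.0446% of the unmarked distal sites. The order was the opposite for motifs of regulated elements. TGANTCA, the AP-1 motif, was in 3.37% of members against 9.45% and 12.7%, CAGCTG, an E-box of basic helix-loop-helix factors, in 16.8% against 34.7% and 33.2%, and the CTCF consensus in 1.22% against 5.8% and 6.16%. GC content differed between these classes as given above, and its part in the motif shares was not tested.

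Set beside all 20807 protein-coding promoters of the same length rather than beside other open sites, the contrast was smaller for the activator motifs. That set includes promoters of members, since 10907 of the 20807 genes (52.4%) had a member promoter. The overlap by itself shrinks the contrast, and promoters of the remaining genes were not taken alone. In the window from 250 bp before to 50 bp after the TSS, GGGCGG was held by 68.1% of members and 46.1% of all promoters, CCGGAAG by 17.1% and 11.4%, the NRF1 motif by 10.6% and 6.31%, TGACGTCA by 3.92% and 2.5%, and CCAAT by 39.4% and 38.2%. For AAGATGG the shares were 6.84% and 6.28%. CAGCTG was in 14.8% and 15.5%, the AP-1 motif in 3.92% and 6.63%, and the CTCF consensus in 0.914% and 0.562%, so that for CTCF the order was the reverse of that beside the other open sites. The TATA box, TATAA or TATAT starting 40 to 20 bp before the TSS on the transcribed strand, was held by 180 members (1.63%) against 2.9% of unmarked promoters and 5.32% of all promoters. It was in 4 of the 26 member sites of immediate early genes (15.4%), among the highest shares of the lists. The TCT initiator, here CTTT with C or T before and after it and its first base within 5 bp of the TSS, was held by 154 members (1.39%) against 2.15% and 1.55%. It was in 5 of 65 member sites of cytosolic ribosomal protein genes (7.69%), 5 of 57 of translation factors (8.77%) and 4 of 64 of oxidative phosphorylation subunits (6.25%). These differences were not tested.

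Members that held one of several activator motifs had higher levels, by amounts that differed between motifs. With CCAAT the median mean percentile was 89.7 and without it 82.1, a difference that averaged 7.03 ± 2.08 percentile points (SD over 6 libraries) and was positive in 6 of 6. The mean difference was 4.27 for GGGCGG, 3.87 for CCGGAAG, 3.61 for the NRF1 motif and 6.42 for the CGCG palindrome, each positive in 6 of 6 libraries. It was smaller for AAGATGG (2.19) and TGACGTCA (0.997), both positive in 6 of 6, and for CACGTG (0.495), which was positive in 5 of 6 with a lowest value of -0.16. The median mean percentile was 76.9 in the 1270 members that held none of the NF-Y, Sp1, ETS and NRF1 motifs. It was 81.7 in the 4815 with 1 kind, 89.1 in the 4060 with 2, 91.6 in the 857 with 3 and 93.7 in the 50 with all 4. Members with CAGCTG, with the AP-1 motif, with the CTCF consensus or with a TATA box had lower levels, with mean differences of -2.2, -1.74, -3.24 and -3.76 percentile points, and in 0 of 6 libraries did any of these 4 have the higher median. Divergent promoters were higher by 4.42 points, and their quiescent H3K4me3 fold enrichment was 46.1 against 37.6 elsewhere.

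The 10 members with the highest mean percentile, 99.8 or 99.9, were at Cyb5a (cytochrome b5), Msantd4, Stil (a centriole assembly protein), Tmem218, Tasp1 (the protease that cleaves KMT2A), Asah1 (acid ceramidase), Nabp1 (a single-stranded DNA binding protein), Hltf (a DNA translocase of replication fork repair), Cldnd1 and Umad1. At Msantd4, whose CCAAT stretch is printed above, fold enrichment was 18.1 and 21.1 in the quiescent, 20.0 and 17.3 in the activated and 21.7 and 22.3 in the reactivated libraries. At Stil it was 20.6 and 22.1, 21.1 and 15.3, and 21.7 and 22.8. At Tasp1 it was 16.8 and 18.8, 17.8 and 18.7, and 22.8 and 24.6. Quiescent and activated values overlapped at all 3 genes. None of these 10 was called between activated and quiescent NSPCs, and their log2 differences ranged from -0.27 at Umad1 to 0.11 at Hltf (limma).

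Genes that nearly every cell uses had a promoter in the set far more often than genes of restricted use. Of 20807 protein-coding genes on these chromosomes, 10907 (52.4%) had a member promoter. The share was 74 of 79 cytosolic ribosomal protein genes, 58 of 65 translation factors, 35 of 38 proteasome subunits, 74 of 78 mitochondrial ribosomal proteins, 73 of 81 nuclear oxidative phosphorylation subunits, 65 of 69 genes of RNA polymerase II and its general factors, 54 of 58 splicing factors and 21 of 21 chaperones. Genes of division were as complete, with 38 of 40 DNA replication genes and 29 of 30 cyclins, cyclin-dependent kinases and E2F genes. All 16 genes of the BMP list and all 23 of the EGF and FGF list had one, as had 18 of 20 immediate early genes, which are induced within minutes of a stimulus. Among 1087 olfactory receptor genes 2 had a member promoter, among 326 vomeronasal receptors 1, among 110 keratins 1 and among 39 Hox genes 0. Genes of mature neurons lay between, with 17 of 38 voltage-gated potassium channels and 22 of 42 glutamate and GABA receptors.

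**Figure D3:**
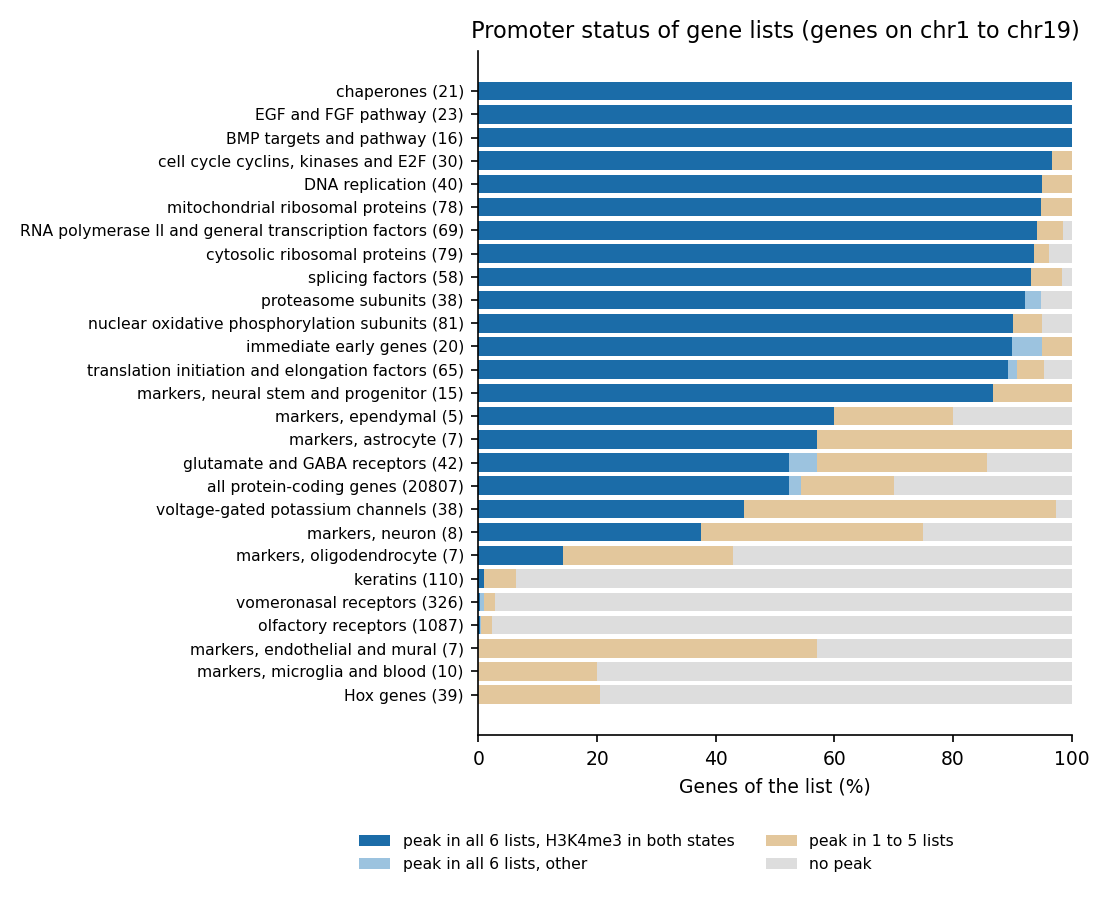
Share of the genes of each list (horizontal axis, percent) whose promoter is a member (dark blue), is open in all 6 lists without H3K4me3 in both states (light blue), is open in 1 to 5 lists (tan) or has no peak (grey), with the number of genes in brackets. Lists of broadly used genes lie near or above 90%, all protein-coding genes at 52.4%, and the olfactory receptor, vomeronasal receptor, keratin and Hox lists below 1%.

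Levels varied within each list. Among ribosomal protein genes the mean percentile ran from 99.2 at Rpl34 to 57 at a site of Rpl38, where fold enrichment was 3.55 and 4.36 in the quiescent, 4.15 and 5.35 in the activated and 6.74 and 6.42 in the reactivated libraries. Among DNA replication genes it ran from 99.6 at Mcm3 to 65 at Mcm2, which encode subunits of the same replicative helicase. At Mcm3 fold enrichment was 17.5 and 16.7, 15.5 and 15.1, and 21.9 and 21.1, and at Mcm2 it was 5.34 and 4.35, 5.45 and 4.23, and 6.83 and 8.52. The helicase genes thus did not overlap in any library. Among cyclins, Ccna2, the cyclin of S phase and mitosis, had 99.3 and Ccne2, a cyclin of S-phase entry, had 31. The NSPC markers were not among the highest members. Their median was 75.2, and the highest was 87.3 at Fabp7, a lipid-binding protein of radial glia. The member promoters of the olfactory receptors Olfr94 and Olfr287 had 54.8 and 49.7, whereas that of the vomeronasal receptor Vmn1r4 had 97.9.

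The comparison of activated with quiescent NSPCs asked which of these always-open promoters nevertheless differed in degree between cells grown with EGF and cells held in BMP4. Activated cells had not been in BMP4, so rises and falls given here are differences between libraries of the states. Per the methods, activated cells were also collected sooner after plating. Time in culture and the factors cannot be told apart. It was fitted with limma on quantile-normalized log2 fold enrichment over all 22589 sites open in all 6 lists, with Benjamini-Hochberg adjustment over all of them and a threshold of 0.05. Fitted differences follow that normalization and can depart from the ratio of the fold enrichments printed here. Of the 11052 members, 342 (3.09%) were called, 203 higher and 139 lower in activated cells, where 10.8% of all sites tested were called, 6.09% higher and 4.66% lower. The share was 16% at unmarked promoters, 19.3% at unmarked distal sites and 11.5% at distal sites with H3K4me3. The middle 90% of members had log2 differences from -0.421 to 0.475, and 1396 members had an unadjusted p under 0.05. The count rested on single libraries, with 94 members called without quiescent replicate 1, and on the site value, with 109 called when the mean of a site's peaks was used. The balance of directions also depended on the processing, with 210 higher and 432 lower after median centring and 124 higher and 181 lower without activated replicate 1. When the pileup over the genome-wide background of each library was used in place of fold enrichment over the local one, 879 members (7.95%) were called, 535 higher and 344 lower, where 16.6% of all sites were, 9.04% higher and 7.54% lower. Of the 342 calls, 314 (91.8%) were also called in the same direction on that scale. Fewer of them were called again with the sum (70) or the mean (63) of a site's fold enrichments, without quiescent replicate 1 (81) or 2 (133) and without activated replicate 1 (166) or 2 (132). CpG-poor members were called more often, with 12.1% of those with a CpG ratio below 0.4 and 1.95% of those with 0.8 to 1.0.

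The changes that were called reached several-fold at single promoters. Dmrta1, which encodes a DM-domain transcription factor, had fold enrichments of 13.1 and 15.5 in the quiescent, 5.04 and 4.85 in the activated and 12.0 and 10.8 in the reactivated libraries. Its activated values lay below all others, and it fell by 1.53 ± 0.17 (SE) on the log2 scale (limma adjusted p = 7.42e-05), the largest decrease among called members. Gm42906, Eapp, which encodes an E2F-associated phosphoprotein, Zkscan4, a zinc finger gene, and Acss3, an acyl-CoA synthetase gene, followed with log2 differences of -1.23, -1.21, -1.21 and -1.18. Each of these 4 had its lowest fold enrichment in an activated library. In the other direction, the member site of Gm973 at chr1:59515991-59516717 had 2.89 and 2.9 in the quiescent, 9.72 and 11.6 in the activated and 17.7 and 16.7 in the reactivated libraries, and rose by 1.7 ± 0.2 (SE, adjusted p = 7.91e-05). A second member site of this gene, at chr1:59524088-59524543, went the other way, with 7.87 and 5.73, 4.24 and 3.14, and 16.3 and 14.4 in the same order and a log2 difference of -1.13 (adjusted p = 0.00218), or -1.3 on the pileup scale (adjusted p = 0.000341). Exosc9, which encodes a core subunit of the RNA exosome, had 2.63 and 3.36, 11.4 and 9.21, and 13.5 and 15.1, and rose by 1.62 ± 0.21 (SE, adjusted p = 0.000219). The summit of this site lay at -1092 bp from the TSS of Exosc9, away from the TSS itself. The same size of 1.62 was fitted at 5330413P13Rik, and 1.61 and 1.5 at Gm46204 and Nhsl1. In all 5 the quiescent libraries lay below all others, so that a peak was present throughout but weak in quiescent cells. The 10 named here kept their calls on the pileup scale, where the log2 difference was smaller at Eapp (-0.64) and larger at Gm46204 (2.44). With 1 library left out it was -0.68 at Gm42906 without activated replicate 1 and -0.8 at Zkscan4 without activated replicate 2. It was 1.05 at Gm46204 with the mean of a site's fold enrichments and 2.33 at Nhsl1 with the sum. With the sum of a site's fold enrichments, Dmrta1 (log2 difference -0.62, adjusted p = 0.142), Gm42906 (adjusted p = 0.0896) and Zkscan4 (adjusted p = 0.0798) missed the threshold. With the mean, Gm42906 (adjusted p = 0.058), Eapp (adjusted p = 0.0537) and Acss3 (adjusted p = 0.0864) missed it. With 1 library left out, Gm42906 missed it without quiescent replicate 2 (adjusted p = 0.0961), Zkscan4 without quiescent replicate 1 (adjusted p = 0.0674), and Acss3 without quiescent replicate 1 (adjusted p = 0.0725) or activated replicate 2 (adjusted p = 0.0537).

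Members called higher in activated cells held CAGCTG more often than the others. It was in 69 of the 203 (34%, exact 95% interval 27.5% to 41%), in 15.8% of the 139 called lower (10.2% to 23%) and in 16.5% of the 10710 not called (15.8% to 17.2%). Unmarked distal sites had the same order, with 54.7% of those called higher, 25.8% of those called lower and 31.3% of those not called. TGANTCA was in 8.37% of the members called higher, 5.76% of those called lower and 3.24% of those not called. GGGCGG was less frequent in called members, at 58.6% of those higher and 57.6% of those lower against 73.5%. Exosc9 and 5330413P13Rik are shown because they held CAGCTG in the window around the summit and had the largest increases of such members whose stretch held at most 20 exonic bases, which passed over Gm973, a choice made after their values were seen. The stretches are chr3:36551473-36551558 and chr2:131847712-131847797, both on the plus strand of mm10, with CAGCTG in capitals.
Exosc9, CAGCTG: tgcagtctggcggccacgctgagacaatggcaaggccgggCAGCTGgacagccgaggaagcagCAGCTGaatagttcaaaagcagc
5330413P13Rik, CAGCTG: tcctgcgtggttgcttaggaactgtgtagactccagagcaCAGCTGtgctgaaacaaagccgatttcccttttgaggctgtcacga

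The BMP list, whose 16 genes had 20 member sites, held 4 calls, 1 higher and 3 lower in activated cells, beside 3.09% of all members and 10.8% of all sites tested, and its median log2 difference was -0.03 against -0.01 over all members. Smad6, an inhibitory SMAD that BMP signalling induces, had 7.53 and 5.41 in the quiescent, 4.12 and 3.13 in the activated and 4.11 and 4.59 in the reactivated libraries at one of its sites, and fell by 1.09 ± 0.23 (SE, adjusted p = 0.0059). The quiescent values lay above the rest. Nog, which encodes the secreted BMP antagonist noggin, had 7.4 and 5.99, 4.68 and 4.33, and 6.09 and 6.23, and fell by 0.76 ± 0.22 (adjusted p = 0.031). Smad9, a SMAD activated by BMP receptors, had 5.96 and 4.5, 4.24 and 3.28, and 11.9 and 10.7, and fell by 0.74 ± 0.22 (adjusted p = 0.0398). Bmpr1b, a BMP receptor, was the one called higher, with 4.32 and 3.44, 8.79 and 6.24, and 7.86 and 8.59 at one of its sites and a log2 difference of 0.71 ± 0.21 (adjusted p = 0.0405). The Id genes, classical BMP targets that block differentiation factors, were not called. At Id3 fold enrichment was 6.68 and 5.81, 6.41 and 5.32, and 5.11 and 5.62, and at Id4 it was 11.4 and 13.4, 12.6 and 8.38, and 14.3 and 12.8, so that quiescent and activated values overlapped. On the pileup scale 1 site of the list was called higher and 5 lower, the added ones at Id1 (adjusted p = 0.00523) and Smad7 (adjusted p = 0.00748), another inhibitory SMAD, where 7.95% of all members were called.

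**Figure D4:**
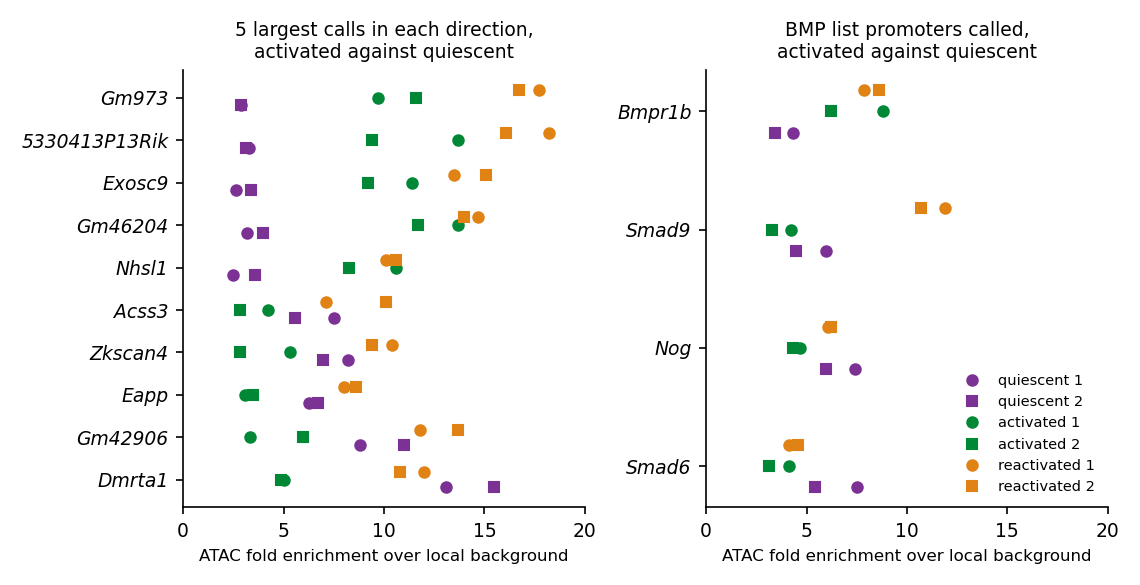
ATAC-seq fold enrichment over the local background (horizontal axis, linear scale, unitless) at the 5 members with the largest called decrease and the 5 with the largest called increase from quiescent to activated NSPCs (left) and at the 4 called members of the BMP list (right). Each point is 1 library, coloured by state and shaped by replicate. At Dmrta1 the activated libraries lie lowest at 5.04 and 4.85, and at Exosc9 the quiescent ones at 2.63 and 3.36.

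Calls in the other lists are set beside the 3.09% of all members called on the scale of fold enrichment and the 7.95% called on the pileup scale, and with so few sites a count of 0 or 1 lies near that background and says nothing particular about a list. By limma at the adjusted threshold, 0 of 65 sites of cytosolic ribosomal proteins were called, with 1 at an unadjusted p under 0.05 and 0 on the pileup scale. The EGF and FGF list had 0 of 26, with 4 at the unadjusted p and 1 on the pileup scale, at Etv1, an ETS factor downstream of FGF. DNA replication genes had 0 of 31, with 4 and 2, mitochondrial ribosomal proteins 0 of 63, with 5 and 1, splicing factors 0 of 45, with 2 and 1, and proteasome subunits 0 of 32, with 2 and 0. The RNA polymerase II list had 0 of 59, with 3 and 1, and chaperones had 0 of 16, with 0 and 0. Site counts of a list, here and elsewhere, need not cover all its member promoters. Chaperones had 16 sites beside 21 genes with a member promoter, ribosomal proteins 65 beside 74 and DNA replication 31 beside 38. Of 33 sites of cyclins, kinases and E2F genes 2 were higher in activated cells. They were E2f7, a repressive E2F, with 6.94 and 10.1 against 13.8 and 12.2 (log2 difference 0.49, adjusted p = 0.045), and Rb1, the retinoblastoma repressor of E2F, with 4.08 and 5.99 against 10.5 and 8.51 (0.71, adjusted p = 0.0301). Of 57 sites of translation factors 3 were lower, at Eif2ak4, Eif2d and Eif4a2, and the log2 difference at Eif2d was -1.03. Umad1, among the 10 most accessible members above, was called lower on the pileup scale alone (adjusted p = 0.00702). Calls of higher accessibility stood in other lists, at Cox5a, a cytochrome c oxidase subunit (log2 difference 0.55, adjusted p = 0.123 on the pileup scale), at a site of the immediate early gene Klf6 (0.9) and at the glutamate receptors Grin1 (0.87) and Grm5 (0.92). These were 1 of 64 sites of oxidative phosphorylation subunits, with 1 higher on the pileup scale, 1 of 26 of immediate early genes, with 4 higher, and 2 of 25 of glutamate and GABA receptors, with 5 higher and 1 lower. Voltage-gated potassium channels had 1 higher of 17, and 3 higher and 1 lower on the pileup scale. Of 17 sites of NSPC markers none was called on the scale of fold enrichment, with 3 at an unadjusted p under 0.05, whereas 5 were called higher on the pileup scale, among them Hes1 and Vim, beside the 7.95% of all members. For cyclins, kinases and E2F genes that scale called 6 higher, with Ccnd1, Cdk4, E2f3 and Myc added. The 2 scales share the read pileup and differ in the background, and the median local background of members was 7.93 and 12.8 in quiescent and 8.38 and 7.13 in activated libraries.

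Reactivated NSPCs were compared with both other states to see whether promoters returned to the activated level. The comparison with activated cells shares its control libraries with the comparison above, so calls of the 2 were not set against each other. Between reactivated and activated NSPCs, 2031 members (18.4%) were called, 701 higher and 1330 lower, where 18.1% of all sites were (9.27% higher and 8.83% lower). Between reactivated and quiescent NSPCs, 2746 members (24.8%) were called, 943 higher and 1803 lower, where 27.7% of all sites were (13.7% higher and 14.1% lower). Without reactivated replicate 1 the counts were 450 and 1055. The direction of the calls depended on the scale and the normalization. With the sum of a site's fold enrichments they were 107 higher and 44 lower against activated cells and 553 and 484 against quiescent cells. Without normalization they were 5369 higher and 14 lower, and 7342 and 15. On the pileup scale the excess of lower calls was gone. It called 1131 members between reactivated and activated cells, 609 higher and 522 lower, where 12.3% of all sites were called, 6.2% higher and 6.07% lower. Between reactivated and quiescent cells it called 2145, 1247 higher and 898 lower, where 27.4% of all sites were called, 14.2% higher and 13.2% lower. Of the fold enrichment calls, 638 (31.4%) and 981 (35.7%) held in the same direction on both scales. The median local background at members was 7.13 to 12.8 in the quiescent and activated libraries, whose genome-wide backgrounds were 6.01 to 12.1, and 13 and 12.4 in the reactivated ones, against 6.5 and 6.52.

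Of the 1330 members called lower in reactivated than in activated cells, 753 lay in the widest of 4 groups by H3K4me3 width, and on the pileup scale 198 of 522 did. Members were put into 4 groups of near equal size by the mean width of their H3K4me3 region in the quiescent and activated lists, with median widths of 1357, 1927, 2508 and 3640 bp. The median log2 difference between reactivated and activated cells was 0.15 in the narrowest group, -0.00 and -0.15 in the next ones and -0.35 in the widest. In the narrowest group 428 members were called higher and 85 lower, and in the widest 19 higher and 753 lower. On the pileup scale the medians were 0.11, 0.04, -0.01 and -0.07, and the widest group had 77 higher and 198 lower, so that the gradient kept its direction and lost most of its size. Spearman's rho between width and log2 difference over the members was -0.495, and -0.186 on the pileup scale. The local background of the first reactivated library rose from 10.2 in the narrowest to 18.3 in the widest group, and that of the first quiescent library from 7.06 to 9.54. Between activated and quiescent cells the medians were -0.01, 0.00, 0.00 and -0.03 on the scale of fold enrichment and -0.05, -0.03, 0.01 and 0.07 on the pileup scale. Between reactivated and quiescent cells they fell from 0.16 to -0.37 with width on the first scale and lay between -0.00 and 0.07 on the second.

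**Figure D5:**
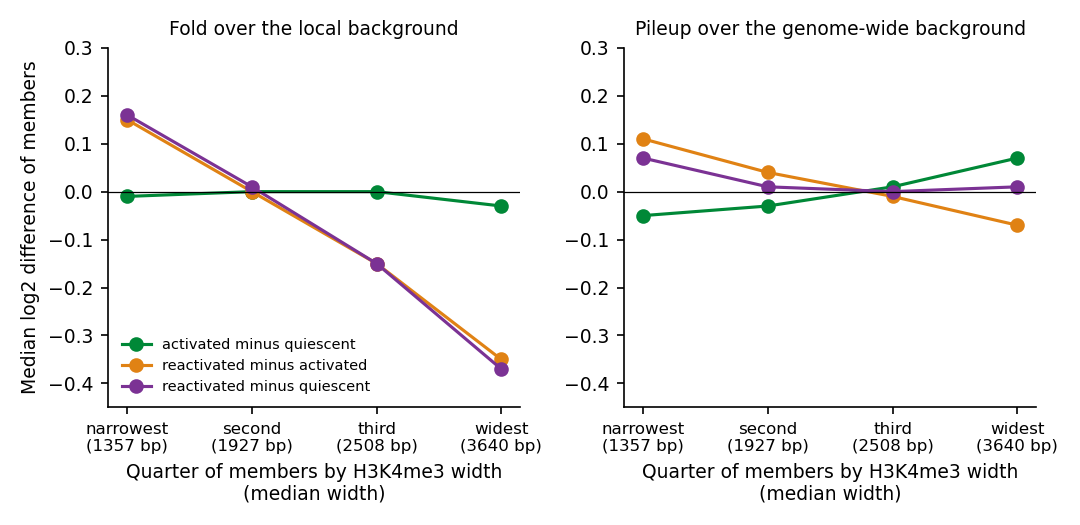
Median log2 difference of accessibility over members (vertical axis) in 4 groups by H3K4me3 width (horizontal axis, median width in bp) for each pair of states, on fold enrichment over the local background (left) and on pileup over the genome-wide background (right). Reactivated minus activated falls from 0.15 to -0.35 on the left and from 0.11 to -0.07 on the right.

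Some promoters differed in reactivated cells on both scales. Kmt2a, which encodes a methyltransferase of H3K4, had 14.1 and 13.0 in the quiescent, 12.8 and 12.3 in the activated and 6.6 and 6.68 in the reactivated libraries. Reactivated values were the lowest there although most promoters had higher fold enrichment in these libraries, and it fell by 1.55 ± 0.15 from activated cells (SE, adjusted p = 2.67e-05), with a log2 difference of -1.72 on the pileup scale (adjusted p = 7.03e-09). Calm3, a calmodulin gene, C130071C03Rik, Cipc, which encodes a partner of the clock protein CLOCK, and Clptm1 followed with log2 differences of -1.26, -1.26, -1.25 and -1.21. Higher than in activated cells were a second site of Gm973 (1.6), Fgl2, a fibrinogen-like gene of immune regulation (1.55), Rsph4a, a radial spoke gene of motile cilia (1.43), Olfr287 (1.43) and Trim21, a ubiquitin ligase that binds antibodies (1.37). At Trim21 fold enrichment was 11.1 and 12.2 in the quiescent, 7.16 and 4.85 in the activated and 18.9 and 21.9 in the reactivated libraries, and the groups did not overlap. The difference from activated cells had an adjusted p of 6.43e-05. With the sum of a site's fold enrichments, 5 of these missed the threshold in this comparison. The log2 difference was then smaller at Kmt2a (-0.71, adjusted p = 0.08), Calm3 (-0.86, adjusted p = 0.0851) and Fgl2 (0.88, adjusted p = 0.127) and close to the first value at C130071C03Rik (-1.12, adjusted p = 0.0503) and Olfr287 (1.23, adjusted p = 0.125). With the mean it was -0.78 at Calm3 and -0.69 at C130071C03Rik, on the pileup scale 0.9 at Rsph4a, and without normalization the 5 decreases ranged from -0.92 at Kmt2a to -0.59 at Cipc and Clptm1. Olfr287 also missed it without activated replicate 1 (adjusted p = 0.0792) and without reactivated replicate 1 (adjusted p = 0.108).

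Against quiescent cells, the largest decreases after Kmt2a (-1.7) were at Tgds, a sugar nucleotide dehydratase gene (-1.61), AC141471.6 (-1.57), Commd3 (-1.37) and C130071C03Rik (-1.33). The largest increases were at Phactr2, a regulator of phosphatase 1 and actin, which had 3.02 and 2.14 in the quiescent, 9.28 and 5.42 in the activated and 16.5 and 14.9 in the reactivated libraries and rose by 2.06 ± 0.24 (SE, adjusted p = 5.91e-05). Activated values there lay above quiescent ones. The difference between reactivated and activated cells was 0.64 and was not called (adjusted p = 0.0718, and 0.695 on the pileup scale). Gm973 (1.94), 5330413P13Rik (1.75), Adgb, a globin-like gene (1.7), and Ak5, an adenylate kinase gene (1.62), came next. These named genes kept their calls on the pileup scale, with smaller log2 differences at Commd3 (-0.86) and C130071C03Rik (-0.85). With the mean of a site's fold enrichments the differences were -0.81 at both of these and 1.04 at Ak5, and with the sum -0.95 at Kmt2a. Without normalization the 5 decreases ranged from -1.02 at Kmt2a and AC141471.6 to -0.63 at Commd3. The lists are set beside 18.4% of all members called between reactivated and activated cells, 6.34% higher and 12% lower, and 10.2% on the pileup scale, and a count near those shares is not particular to a list. Ribosomal protein sites had 1 higher and 14 lower call of 65 between reactivated and activated cells and 0 and 11 on the pileup scale. At Rpl13a fold enrichment was 9.72 and 8.53, 11.9 and 9.27, and 7.75 and 7.37, with a log2 difference between reactivated and activated cells of -1.13 (adjusted p = 0.00076). Immediate early genes had 0 higher and 8 lower of 26, and 0 and 3 on the pileup scale. Chaperones had 0 higher and 7 lower of 16, and 0 and 1 on the pileup scale. The EGF and FGF list had 0 higher and 6 lower of 26, and 0 and 2 on the pileup scale, and the BMP list had 1 higher and 5 lower of 20, and 1 and 0. DNA replication genes had 3 higher and 2 lower of 31, and 1 and 0 on the pileup scale, and the RNA polymerase II list had 7 and 13 of 59, and 1 and 6. Against quiescent cells, 24.8% of all members were called, 8.53% higher and 16.3% lower, and 19.4% on the pileup scale. Ribosomal proteins had 0 higher and 17 lower (0 and 14 on the pileup scale) and immediate early genes 1 and 8 (2 and 4). The EGF and FGF list had 3 and 8 (3 and 2) and the BMP list 0 and 10 (1 and 6). DNA replication genes had 3 and 4 (0 and 2) and the RNA polymerase II list 3 and 17 (1 and 10). Chaperones had 1 and 7 (0 and 3).

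The H3K4me3 regions over members were strong and of kilobase width. Median fold enrichment over input was 38.4 in quiescent (quartiles 29 and 47.3) and 35.9 in activated NSPCs (26.5 and 44.1), against 8.64 and 7.74 at the 1464 constitutive distal sites with the mark. Median widths were 2265 and 2128 bp against 1101 and 1022 bp. Members lay in 10397 of the 16584 quiescent regions (62.7%) and 10406 of the 15417 activated regions (67.5%), and 624 and 616 of these regions held 2 or more, with at most 5. The highest mean values were at Ddx51, an RNA helicase gene, with 91.2 in the quiescent and 69.1 in the activated library, followed by Bag4, Ndor1, Spata5l1 and Gigyf2. A high mark did not go with the highest accessibility at all of these, since the mean percentile of Ddx51 was 63.5 and that of Bag4 96.5. Over all members Spearman's rho between mean percentile and quiescent H3K4me3 fold enrichment was 0.223.

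The widest region measured 24023 bp in quiescent and 23281 bp in activated cells and held 5 members, 4 at C130071C03Rik and 1 at Gm26803. Next were Nfib, a nuclear factor I gene of glial and neural stem cell development, with 19330 and 19556 bp, Gm3764 with 16473 and 14695 bp, and Pou3f3, a POU factor of the forebrain, with 14302 and 13745 bp. Sall3 and Six3, further developmental transcription factors, had 13244 and 12426 bp in quiescent cells. Mean percentiles of the ATAC-seq peaks in these regions ranged from 14.3 at a site of Nfib to 85.2 at a site of C130071C03Rik, beside a median of 85.2 over all members.

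The mark differed little between states at most members. The log2 ratio of activated to quiescent fold enrichment had a median of -0.11, and 90% of members lay between -0.61 and 0.32. Only 8 members had a ratio of 1 or more on the log2 scale and 37 had -1 or less, and Pearson's r between the states was 0.932. The lowest ratios were at Hspb8, a small heat shock protein gene, with 21.5 in the quiescent and 5.17 in the activated library, Plec, the gene of the cytolinker plectin, with 14.7 and 3.62, and Pcdhgc4, a clustered protocadherin gene, with 35.8 and 9.43. The highest were at Dglucy, a D-glutamate cyclase gene, with 4.79 and 17.6, Nes, the intermediate filament nestin of neural stem cells, with 16.4 and 46.8, and C030034L19Rik with 4.55 and 11.4. At Nes the ATAC-seq values overlapped between the states, with 3.67 and 3.74 in quiescent and 5.99 and 3.48 in activated libraries. At C030034L19Rik they did not, with 4.15 and 3.44 against 9.97 and 8.53 (log2 difference 1.04, adjusted p = 0.00237).

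The BMP list had lower H3K4me3 in activated cells at more of its sites than members did at large. Its median log2 ratio was -0.33 against -0.11, 9 of 20 sites had -0.5 or less and 0 had 0.5 or more, whereas over all 11052 members 999 had -0.5 or less and 159 had 0.5 or more. Some of the 20 sites share a region, so they are not independent. At Smad6, where accessibility was also lower, fold enrichment was 38.3 in the quiescent and 14.1 in the activated library and the region narrowed from 7075 to 2661 bp. At Nog it was 46.3 and 21.8, with 6091 and 2348 bp. At Id1 it was 57.9 and 35.6 and at Id4 44.0 and 23.8, and at Bambi, a decoy receptor of the pathway, 39.6 and 23.9. Smad7 kept its fold enrichment, with 35.1 and 36.6, and its region measured 9994 bp in quiescent and 3478 bp in activated cells. With 1 library per state these ratios have no test. The EGF and FGF list had a median ratio of -0.05 and the cytosolic ribosomal proteins -0.04.

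At the edge of the rule, the members with the weakest required peak were at C2cd4a, Zic1, Il17d, Igf2r and Adamts19, whose lowest −log10 q over the 6 lists was at the calling limit of 1.3. At Il17d, an interleukin 17 family gene, fold enrichment was 2.5 and 1.99 in the quiescent, 4.64 and 3.71 in the activated and 6.69 and 6.6 in the reactivated libraries. Just outside were 976 marked promoters open in 5 of the 6 lists. Those whose weakest of the 5 peaks was strongest were at Gdap1, Nop10, Zfp61, Zfp65 and Arrdc3, with lowest −log10 q of 24.1, 22.9, 19.2, 17.8 and 17.7. The list without a peak was the first quiescent one at 391 of the 976, the second activated one at 333, the second quiescent one at 173, the first activated one at 74 and a reactivated one at 5. The reactivated lists had the most peaks.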

How the data were processed

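ATAC-seq peak lists of 6 libraries and H3K4me3 region lists of 2 libraries of P5 NSPCs were used. Per the submitters' processing notes, Trim Galore 0.4.0, Bowtie2 2.2.5, Picard 1.88, SAMtools 1.3.1 and HOMER were used, and the build was mm10. The authors called ATAC-seq peaks in each library with MACS at an FDR of 0.05, and H3K4me3 regions with input as control in broad mode (q 0.05, broad cutoff 0.01, extension 150 bp). The deposited fold enrichment is a linear ratio that the authors did not normalize between libraries. The authors also deposited −log10 p-values and −log10 q-values, which depend on the depth of the library. The score the authors deposited is a multiple of −log10 q and was not used, and the summit they deposited counts bp from the peak start.

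Depth per library was not analysed from reads. Whole pileups at summits were recovered from the deposited fold enrichment and p to within 0.02%. In a regular subsample of the called peaks, without those of the smallest p, they gave genome-wide backgrounds of 6.01 to 12.1 and lowest pileups of 16 to 25. The lowest pileups describe that subsample, and a limit of detection was not determined.

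Sites, TSSs (GENCODE M21) and sequences (GRCm38.p6) were processed with Python 3.11.15, numpy 2.4.6, pandas 2.3.3 and scipy 1.17.1, differences between states with R 4.3.3 and limma 3.58.1, and figures with matplotlib 3.10.9. The methods test read counts, which peak lists do not hold, so limma with trend was run on quantile-normalized log2 fold enrichment over the sites open in all 6 lists. In simulated data for activated against quiescent cells over 22589 sites, 77% of 100 sites changed by 1 on the log2 scale and 15% of 100 changed by 0.5 were recovered, with 4 false calls. The simulation drew independent normal noise with the spread that limma had fitted, alike in all libraries. It changed 200 sites, whereas 10.8% of all sites were called in the data. Its rates therefore need not hold for the data. The members and the gene lists were chosen with earlier results of these data known. Named were the 10 members of highest mean percentile, the 5 largest called changes in each direction per comparison with groups that did not overlap, extremes of H3K4me3, the highest and lowest gene of each list, cell type markers and the sites nearest the edge of the rule. Genes of a list that changed and further wide H3K4me3 regions were named in addition, after their values were seen. Alternatives were other scalings, site values, promoter windows, −log10 q of at least 10, a replicate block and each library left out. The pileup scale was chosen after the data were seen.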

Additional observations from a re-analysis of the deposited data

Results flagged for a closer look

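The rule was applied to chromosomes 1 to 19, and chromosome X was not used in any comparison. Of 2961 merged sites there, 506 were open in all 6 lists, and 337 were promoters with H3K4me3 in both states, which is a signal in data that the comparisons do not use. No group of ATAC-seq libraries was large enough for a search for a library that stands apart, since each state had 2.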

How the results depend on the processing

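Members stayed above unmarked promoters in 6 of 6 libraries with the mean of a site's peaks (0.299, with 0.053 in the lowest library), percentiles (18.3), a 500 bp window (0.591), protein-coding TSSs (0.66), −log10 q of at least 10 (0.341) and pileups (0.753). The difference from unmarked distal sites was recomputed with pileups alone (0.784, 6 of 6) and with 1 library left out. Leaving out 1 library gave 0.553 to 0.622 and 0.48 to 0.559, each with an exact permutation p of 0.0625, the smallest that 5 libraries allow. Median GC content was 64% over the whole site and 62% in the promoter window, and the CpG ratio 0.783 and 0.791. Counts of calls depended on the processing. Members called between activated and quiescent cells numbered 642 with median centring, 520 without normalization, 180 with the sum and 109 with the mean of a site's fold enrichments, 166 at −log10 q of at least 10, 879 with pileups and 94 to 305 with 1 library left out (94 without quiescent replicate 1, 204 without quiescent 2, 183 without activated 2, 224 without reactivated 1 and nearly the same without reactivated 2). The split was 210 higher and 432 lower with median centring and 489 higher and 31 lower without normalization. Between reactivated and activated cells they numbered 5383 without normalization, 151 with the sum, 740 with the mean, 1278 without trend, 1131 with pileups and 450 to 1696 with 1 library left out (450 and 822 without reactivated 1 and 2, 796 without activated 2). Between reactivated and quiescent cells they numbered 4206 with median centring, 7357 without normalization, 1037 with the sum, 1431 with the mean and 1055 to 3088 with 1 library left out (1055 and 1509 without reactivated 1 and 2, 1258 and 1224 without quiescent 1 and 2). The causes were not tested, beyond the fewer sites at a stricter q and the fewer samples with a library left out. Without normalization the median of all sites moved to 0.15, 0.55 and 0.73 in the 3 comparisons. Same-numbered libraries showed no shared shift over sites after normalization, since their deviations from the state means had r of 0.0099, 0.0264 and -0.006. These values cannot show whether same-numbered libraries came from one isolation or batch. With the replicate block 347, 2084 and 2763 members were called against 342, 2031 and 2746 without it. Of the 30 named changes none reversed under any setting for which it had a value. At −log10 q of at least 10 only 11 of the 30 had one. In all, 384 alternative values kept the call. A further 17 missed the threshold, at Dmrta1, Gm42906, Eapp, Zkscan4, Acss3, Kmt2a, Calm3, C130071C03Rik, Fgl2 and Olfr287.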
